A study of Mus musculus with 4 samples.

Results

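Immediate early genes were followed across the cell classes of the mouse retina in long-read single-cell cDNA. The set was a fixed list of 10 genes, Jun, Junb, Jund, Fos, Fosb, Egr1, Atf3, Btg2, Ier2 and Dusp1, matched by Ensembl gene identifier. Of these, 9 were present in the deposited table, with 12 of its 44325 isoforms and out of 13452 Ensembl genes. Ier2 had no isoform under its own identifier. With at least 100 counts there were 7 of these genes and 9868 genes in all.

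The retinas came from wild-type male C57BL6/J mice, an inbred laboratory strain, and were taken apart with papain, a protease, at 37 °C. Of 4 libraries, 2 had no enrichment, 1 of them from postnatal day 40 and the other with no age in its label. The library labelled CD73 enrichment was from postnatal week 8 and the library labelled CD90.2 enrichment was from postnatal month 4. The protocols describe removal of CD73-positive cells, which are mostly photoreceptors, and selection of CD90.2-positive cells. The counts were deposited for 6 cell classes with the libraries pooled: amacrine cells (48248340 counts), rods (55437340), Müller glia (6133094), cones (7307134), bipolar cells (29010038) and ganglion cells (3509890). A class is therefore 1 sample. No difference between classes has a replicate check, and no test between classes was made. Levels are counts per 1000000 counts of the column (CPM), with exact Poisson 95% intervals that cover counting error only. Age, enrichment and cell class cannot be told apart where a class came mainly from 1 library. A CPM is a share of the RNA counted in a class and does not give the amount per cell.

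Immediate early genes are transcribed within minutes of a stimulus, from factors already present in the cell, and need no new protein synthesis. Growth factors, calcium entry, injury and the dissociation of tissue all induce them. Many encode transcription factors: Jun and Fos proteins pair through a leucine zipper to form AP-1, which binds DNA and activates later genes. In the retina, Fos and Egr1 are widely used as markers of light-driven neuronal activity, and Müller glia, the radial glial cells that span the retina, are known to induce Jun and Fos family genes after injury.

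Of the 7 genes with at least 100 counts, 6 had their highest level in the Müller glia column, a column that led for 17.0% of all genes. Egr1 was the exception and was highest in amacrine cells, a column that led for 19.7% of all genes. The highest class exceeded the second by at least 2-fold in 5 of the 7, against 29.9% of all genes. Müller glia led by at least 2-fold in 4 of the 7 (8.28% of all genes) and amacrine cells in 1 (5.50%). The median ratio of the highest to the second class was 2.96 over the 7 genes and 1.46 over all genes. Only Jun, among the 7, was restricted to a class in the sense that 80% or more of the CPM summed over the 6 columns lay there; 8.00% of all genes were. The lowest level was in ganglion cells for 4 of the 7, against 38.4% of all genes, so a low level there was near the general pattern.

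**Figure D1:**
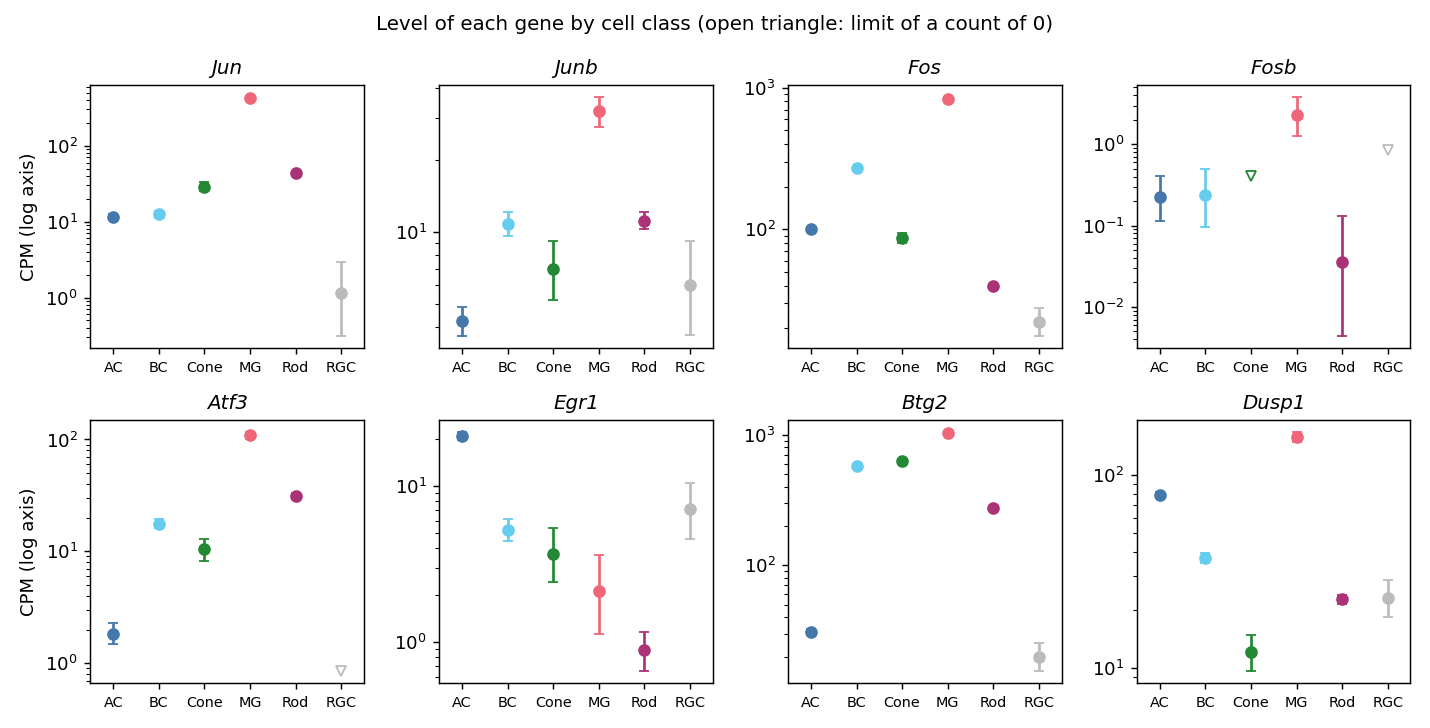
Level of 8 genes in the 6 cell classes, in CPM on a log axis; points are the pooled columns, bars are exact Poisson 95% intervals and open triangles mark the limit that a count of 0 allows (AC amacrine, BC bipolar, RGC ganglion cells, MG Müller glia). Müller glia are highest in 7 panels, Fosb with 14 counts there, and amacrine cells are highest for Egr1.

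The class names were checked against marker genes. Each of the 6 Müller glia markers peaked in its own column, with 44100 CPM in sum against at most 1292 CPM elsewhere. Apoe alone made up 39300 CPM of that sum, and 1113 CPM of the 1292 CPM, which is the sum in rods. The smallest lead over the second column among the 6 was 10.5-fold, for Glul. That column also held the highest levels for all 6 microglial markers with at least 100 counts (sum of 7 markers 1904 CPM, against 854 CPM in rods and 35.3 to 181 CPM in the other columns). It was also highest for 4 of 5 pigment epithelium markers (8826 CPM in sum, 8443 CPM of it from Ttr, at most 62.4 CPM elsewhere). All 3 pericyte markers (355 CPM, at most 12.8 CPM elsewhere) and all 3 astrocyte markers (111 CPM, at most 4.07 CPM elsewhere) were highest there. So was the 1 endothelial marker with enough counts (28.9 CPM for 3 markers). None of the microglial, pericyte, astrocyte or endothelial markers in the table was at 0 there. These cell types have no column of their own, and their part in the Müller glia values was not tested. Rod markers in the Müller glia column were at 5.84% of their level in rods. The 7 genes with at least 100 counts were each at a higher level in the Müller glia column than in rods.

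Jun encodes the main partner in AP-1 and is a gene without introns. It lies on chromosome 4 (95049034 to 95052222, minus strand, build GRCm38; ENSMUSG00000052684.4). Its level was 11.6 CPM in amacrine cells, 12.5 CPM in bipolar cells, 28.7 CPM in cones, 422 CPM in Müller glia, 43.4 CPM in rods and 1.14 CPM in ganglion cells. Müller glia stood far above the other columns, and the intervals of amacrine and bipolar cells overlapped. The Müller glia level was 9.73 times that of rods (95% interval 9.20 to 10.3) and 36.3 times that of amacrine cells (33.1 to 39.8). Ganglion cells had 4 counts of Jun.

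Every count of Jun belonged to a single-exon model of 2625 nt. The model holds the full coding sequence of 1002 nt and begins at the annotated start, and its 3′ end lies 564 nt before the annotated end. The last 30 bases of the model (chr4:95049598-95049627, minus strand) are shown because they hold a poly(A) signal, in capitals, 16 bases before the end.
Jun model end: ccatttgtAATAAAgtatataattttttta
The hexamers AATAAA or ATTAAA were found, on the transcript strand, in the last 30 bases of 63.7% of 11980 modelled isoforms with an Ensembl transcript identifier. The Jun model carries a read name in place of an Ensembl transcript identifier, as do those of Junb and Jund, so a count of annotated isoforms by name leaves all 3 out.

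Junb, another AP-1 subunit and a gene without introns in its coding transcript, lies on chromosome 8 (84974484 to 84978718, minus strand; ENSMUSG00000052837.7). Its level was 4.23 CPM in amacrine cells, 10.8 CPM in bipolar cells, 6.98 CPM in cones, 31.8 CPM in Müller glia, 11.1 CPM in rods and 5.98 CPM in ganglion cells. Müller glia were again highest, and the other columns lay closer together than for Jun. The ratio to rods, the second class, was 2.85 (2.42 to 3.36), and the intervals of rods and bipolar cells overlapped. The single-exon model of Junb holds the whole coding sequence and extends 397 nt upstream of the annotated start of the coding transcript.

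Jund, the third member of the Jun family, lies on chromosome 8 (70698949 to 70700616, plus strand). It had 8 counts in all, 4 of them in rods and 0 in ganglion cells. Its levels were at or near the limit of 3 counts in every column, so no order of classes was detectable at this depth. The model has 1 exon and holds the full coding sequence of 1023 nt. A locus named by position inside Jund, without a model, had 8 further counts, 6 of them in bipolar cells.

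Fos encodes the partner of Jun in AP-1 and has 4 exons on chromosome 12 (85473890 to 85477273, plus strand; ENSMUSG00000021250.13). The 250 bases upstream of its RefSeq start (chr12:85473640-85473889, plus strand) are shown because they hold a TATA box and sites like the cyclic AMP response element through which calcium and cyclic AMP act on this gene. Capitals mark TATAAA and TGACG.
Fos promoter: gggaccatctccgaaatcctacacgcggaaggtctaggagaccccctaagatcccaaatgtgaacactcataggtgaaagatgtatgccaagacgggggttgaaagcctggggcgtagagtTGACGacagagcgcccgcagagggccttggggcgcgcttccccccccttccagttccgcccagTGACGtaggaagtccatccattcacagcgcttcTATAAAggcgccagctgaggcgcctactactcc
The level of Fos was 101 CPM in amacrine cells, 271 CPM in bipolar cells, 87.0 CPM in cones, 837 CPM in Müller glia, 39.5 CPM in rods and 22.2 CPM in ganglion cells. No intervals of neighbouring classes overlapped. Müller glia exceeded bipolar cells by 3.08-fold (2.98 to 3.20), rods by 21.2-fold (20.1 to 22.3) and ganglion cells by 37.7-fold (30.1 to 47.7). Unlike Jun, whose second class was rods, Fos was next highest in bipolar cells and lower in rods than in cones and amacrine cells.

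Fos had 2 isoforms with different first exons. The main one, with 20259 counts, has the introns of ENSMUST00000021674.6 and the full coding sequence of 1140 nt. The other, ENSMUST00000140525.7 with 516 counts, begins 801 nt downstream, with a first exon of 105 nt inside the first intron, and shares the remaining 3 exons. GENCODE classes it as a processed transcript without a coding sequence. It lacks the first 141 nt of the Fos coding sequence with its start codon, and the next ATG in the same frame is codon 111 of 380. Both models end where the main transcript is annotated to end, although the annotated form of the shorter isoform stops at 85476185. A poly(A) signal, shown in capitals, lies 19 bases before that shared end (chr12:85477244-85477273, plus strand).
Fos model end: ttgtcAATAAAagcatttaagttgaatgcg

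The shorter Fos isoform was found mainly in amacrine cells. It had 426 of 4865 Fos counts there (8.76%, exact Clopper-Pearson 95% interval 7.98 to 9.59%), 68 of 7871 in bipolar cells (0.864%, 0.672 to 1.09%) and 1 of 5133 in Müller glia (0.0195%, 0.000493 to 0.108%). Rods had 13 of 2192 (0.593%, 0.316 to 1.01%), cones 2 of 636 (0.314%, 0.0381 to 1.13%) and ganglion cells 6 of 78 (7.69%, 2.88 to 16.0%). Amacrine and ganglion cells thus had the higher shares, and their intervals overlapped. As a level, the isoform was highest in amacrine cells at 8.83 CPM (8.01 to 9.71) against 2.34 CPM in bipolar cells and 0.163 CPM in Müller glia, so the 2 first exons of Fos were highest in different classes. A shift of this size in the share of the main isoform was common: between amacrine cells and Müller glia it was -8.74 percentage points for Fos, the median size was 7.09 points over 2048 genes with 2 or more isoforms, and 44.1% of genes differed by at least as much as Fos.

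**Figure D2:**
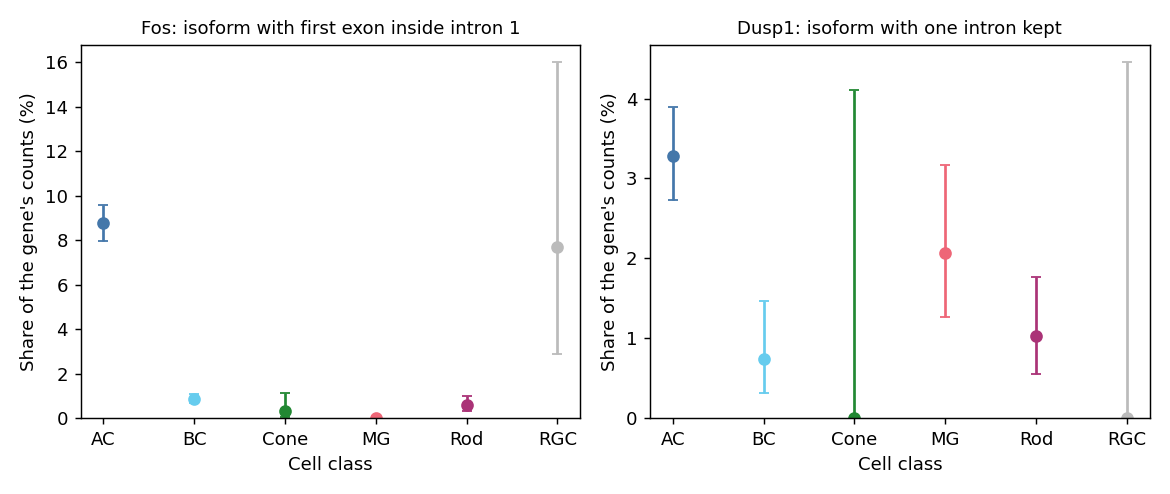
Share of a gene's counts held by the second isoform of Fos (left) and of Dusp1 (right) in each cell class, in percent; bars are exact Clopper-Pearson 95% intervals. The Fos isoform is at 8.76% in amacrine cells and 0.0195% in Müller glia, and the Dusp1 isoform at 3.27% and 2.07%.

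Fosb, a relative of Fos whose shortened splice form is known as ΔFosB, lies on chromosome 7 (19302696 to 19310051, minus strand; ENSMUSG00000003545.3). It had 34 counts, 14 in Müller glia, 11 in amacrine cells, 7 in bipolar cells, 2 in rods and 0 in cones and ganglion cells. As levels these were 2.28 CPM (1.25 to 3.83), 0.228 CPM, 0.241 CPM and 0.0361 CPM, with Müller glia highest and the interval apart from the other classes with counts. The Müller glia to bipolar ratio was 9.46, with a wide interval of 3.57 to 27.7. Both isoforms splice out the intron of 140 nt (19305007 to 19305146) that the longest annotated coding transcript keeps, and its removal is the known mark of ΔFosB. A 5-exon isoform (ENSMUST00000208446.1) held all 14 Müller glia counts of Fosb and 0 of the 11 from amacrine cells, which allows a share of up to 27.3% there. A 4-exon isoform without an Ensembl name, which starts 1899 nt downstream of the annotated start, held the 11 amacrine counts and 0 of the 14 from Müller glia, which allows up to 21.4%. With so few counts, which can be several reads of 1 molecule, this difference has little support. The 5-exon model covers 874 of the 1014 coding nt of the longest transcript (86.2%), and the part it lacks is that intron of 140 nt. The 4-exon model covers 748 nt (73.8%) and also lacks the first annotated exon.

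**Figure D3:**
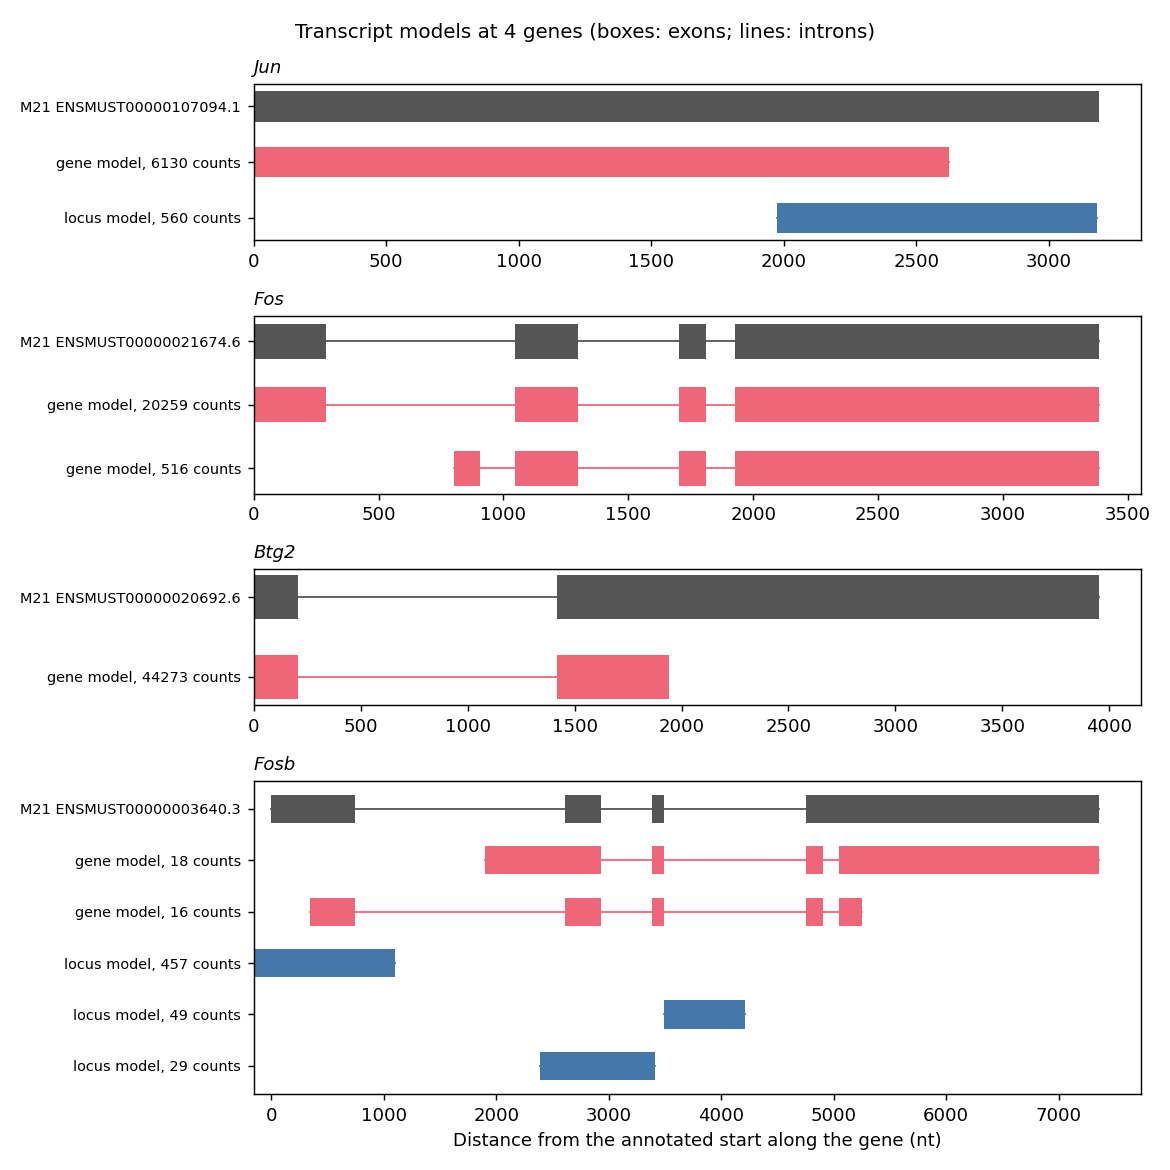
Transcript models at Jun, Fos, Btg2 and Fosb against one annotated GENCODE M21 transcript each, by distance in nt from the annotated start; boxes are exons and lines are introns, in grey for the annotation, red for isoforms under the gene identifier and blue for loci named by position. The Btg2 model ends 2011 nt before the annotated end, and a second Fos model begins 801 nt after the annotated start.

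Egr1 is a zinc-finger factor induced through serum response factor and neuronal activity, and has 2 exons on chromosome 18 (34859823 to 34864984, plus strand; ENSMUSG00000038418.7). Its level was 21.1 CPM in amacrine cells, 5.24 CPM in bipolar cells, 3.69 CPM in cones, 2.12 CPM in Müller glia, 0.884 CPM in rods and 7.12 CPM in ganglion cells. The inner retinal neurons were highest, and Müller glia, with 13 counts, were low. Amacrine cells exceeded ganglion cells by 2.96-fold (1.99 to 4.60) and Müller glia by 9.94-fold (5.79 to 18.7). The intervals of ganglion cells overlapped those of bipolar cells and cones, as did the intervals of cones and Müller glia. Egr1 had 1 isoform, which holds the full coding sequence and begins 1384 nt downstream of the start of ENSMUST00000064795.5, whose identifier it carries. The first base of the model, 34861207, is also the annotated start of another Egr1 transcript, ENSMUST00000165033.1.

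Atf3 is a stress-induced factor of the same basic leucine zipper class, known as an injury marker in axotomized ganglion cells. Its 4-exon transcript lies on chromosome 1 (191170296 to 191183340, minus strand; ENSMUSG00000026628.13), and the model matches the annotated ends. The level was 1.84 CPM in amacrine cells, 17.7 CPM in bipolar cells, 10.4 CPM in cones, 109 CPM in Müller glia and 31.5 CPM in rods, and ganglion cells had 0 counts, which allows up to 0.855 CPM. Müller glia were highest and no intervals of neighbouring classes with counts overlapped. The ratio of Müller glia to rods was 3.45 (3.16 to 3.78) and to amacrine cells 59.0 (47.3 to 74.5). Its order of classes was opposite to that of Egr1 at both ends, with Müller glia and rods above amacrine and ganglion cells.

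Btg2, an antiproliferative protein that recruits the deadenylase of messenger RNAs, has 2 exons on chromosome 1 (134075170 to 134079120, minus strand; ENSMUSG00000020423.6). The 250 bases upstream of its RefSeq start (chr1:134079156-134079405, minus strand) are shown because they hold a full cyclic AMP response element, in capitals.
Btg2 promoter: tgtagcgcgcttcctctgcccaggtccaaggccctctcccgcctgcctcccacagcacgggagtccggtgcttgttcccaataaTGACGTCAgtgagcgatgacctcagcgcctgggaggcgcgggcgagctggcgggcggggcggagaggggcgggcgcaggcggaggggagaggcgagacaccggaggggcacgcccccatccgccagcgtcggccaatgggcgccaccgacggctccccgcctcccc
The level of Btg2 was 30.7 CPM in amacrine cells, 574 CPM in bipolar cells, 628 CPM in cones, 1027 CPM in Müller glia, 274 CPM in rods and 19.9 CPM in ganglion cells. The classes fell into a high set of Müller glia, cones, bipolar cells and rods and a low pair of amacrine and ganglion cells. Müller glia exceeded cones by 1.63-fold (1.57 to 1.70), amacrine cells by 33.5-fold (31.7 to 35.5) and ganglion cells by 51.5-fold (40.7 to 66.1), and bipolar cells exceeded amacrine cells by 18.7-fold (17.7 to 19.7).

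All 44273 counts of Btg2 belonged to 1 model of 2 exons, which holds the full coding sequence of 474 nt but ends 2011 nt before the annotated end. Among the other genes, the main models of Atf3 and Dusp1 held AATAAA 22 and 18 bases before the end, as did those of Jun and Fos at the distances given with their sequences, whereas the models of Junb and Jund and the 5-exon model of Fosb held neither hexamer in the last 30 bases.

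Dusp1 is a phosphatase that switches off the mitogen-activated kinases which induce these genes. Its main transcript has 4 exons on chromosome 17 (26505591 to 26508472, minus strand; ENSMUSG00000024190.7). The 250 bases upstream (chr17:26508473-26508722, minus strand) are shown because they hold a full cyclic AMP response element and a further TGACG, both in capitals.
Dusp1 promoter: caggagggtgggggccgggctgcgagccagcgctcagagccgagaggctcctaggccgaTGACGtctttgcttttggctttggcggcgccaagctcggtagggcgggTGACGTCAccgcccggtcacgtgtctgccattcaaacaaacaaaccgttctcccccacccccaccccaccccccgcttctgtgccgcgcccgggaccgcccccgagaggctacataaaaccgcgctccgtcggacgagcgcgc
The level of Dusp1 was 79.1 CPM in amacrine cells, 37.1 CPM in bipolar cells, 12 CPM in cones, 158 CPM in Müller glia, 22.7 CPM in rods and 23.1 CPM in ganglion cells. Müller glia were highest and amacrine cells second, and the intervals of rods and ganglion cells overlapped. The ratio of Müller glia to amacrine cells was 1.99 (1.86 to 2.14), or 3.02 with median-of-ratios scaling of the columns, and to cones 13.1 (10.5 to 16.5).

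A second Dusp1 isoform, ENSMUST00000126178.1 with 166 of 7286 counts, keeps the intron of 369 nt at 26507205 to 26507573. Amacrine cells had 125 of 3817 Dusp1 counts in this form (3.27%, 2.73 to 3.89%), Müller glia 20 of 968 (2.07%, 1.27 to 3.17%), rods 13 of 1257 (1.03%, 0.552 to 1.76%) and bipolar cells 8 of 1075 (0.744%, 0.322 to 1.46%). Cones had 0 of 88 counts, which allows up to 3.41%, and ganglion cells 0 of 81, which allows up to 3.70%. The intervals of amacrine cells and Müller glia overlapped, and that of amacrine cells lay above those of rods and bipolar cells. Differences of this size were common: 75.7% of genes differed between amacrine and bipolar cells, and 81.3% between amacrine cells and rods, by at least as much as Dusp1.

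Ier2, a short intronless gene on chromosome 8 (84661331 to 84662852, minus strand) that is induced with Fos, was represented by a single-exon locus named by position. That model (84659531 to 84661978) overlaps the last 648 nt of the annotated transcript, holds none of its coding sequence and runs 1800 nt past its end. It had 91 counts, 62 of them in Müller glia (10.1 CPM, 7.75 to 13.0), 22 in rods (0.397 CPM), 4 in amacrine cells, 3 in bipolar cells and 0 in cones and ganglion cells. Müller glia were again highest.

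The 4 intronless genes of the list, Jun, Junb, Jund and Ier2, ranged from 6130 counts to none under their own identifier. The most abundant modelled isoform had 1 exon in 3 of the 9 genes present, against 2.72% of 12472 genes. Of 1362 annotated protein-coding genes whose coding transcripts all have 1 exon, 203 (14.9%) were in the table, with a median of 92 counts, whereas 12844 of 20504 (62.6%) with a spliced coding transcript were, with a median of 505 counts. Whether the method or the expression of such genes in the retina sets these shares was not tested. Of the 9 genes, 6 had 1 isoform in the table, against 31.9% of all genes. None of the 2 genes that could be compared, Fos and Dusp1, had a change of its most abundant isoform between classes by at least 50 percentage points with at least 20 counts in each, against 25% of genes compared.

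RefSeq promoters of 300 bases, 250 of them upstream of the start, were searched for 8 of the 10 genes. Egr1 was left out of the search and its promoter is not reported here, and Ier2 was without an entry. The cyclic AMP response element TGACGTCA was found in 2 of the 8, Btg2 and Dusp1, against 1.79% of 32851 promoters. TATAAA was found in 2 of the 8, Fos and Junb, against 13.6% of promoters. The shorter TGACG, which lies within the cyclic AMP response element, was found on either strand in 6 of the 8, against 20.8% of promoters. It was added to the search after these promoters were seen, so this difference carries no weight as support. The RefSeq start used for Jund lies 1194 nt upstream of the start of its model. The AP-1 site TGANTCA (7.81% of promoters) and the CArG box bound by serum response factor (1.63%) had no match in these 8 windows. Egr1 is not among them, so nothing is said here of such sites at that gene.

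The members did not all share 1 profile, and Egr1 stood farthest from the rest. With the shares of each gene's summed CPM over the 6 classes taken as a profile, and the share that would have to move between classes to make a pair of profiles equal as the distance, the 21 pairs of the 7 genes lay between 17.9 and 82.1 percentage points apart (median 31.5). The closest pair was Fos and Atf3 and the farthest was Jun and Egr1. Every pair with Egr1 was at least 46.9 points apart, and pairs without it were at most 42.1 points apart. For comparison, the median distance of a listed gene to all other genes with at least 1000 counts ran from 37.5 points (Junb) to 69.1 points (Jun). Among 5225 other genes with at least 1000 counts, the nearest to Jun were Gstk1 (3.51 points), Acaa2 (4.40) and Bst2 (4.44). The nearest to Atf3 were the globin genes Hba-a2 (4.02) and Hbb-bt (5.75) and then Selenbp1 (6.41). For Fos they were Wfdc1 (6.40), Sat1 (7.73) and Idh2 (8.04), for Junb Slc3a2 (4.77), Aldh9a1 (5.90) and Psen2 (6.17), and for Egr1 Tstd3 (5.32), Dtx3 (7.04) and Agpat1 (8.36). The nearest to Btg2 were Hmgn5 (7.28), Lap3 (7.71) and Wnk1 (8.21), and to Dusp1 Adk (7.09), Dpysl4 (8.24) and Ninj1 (8.52). These distances rest on 6 values each.

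**Figure D4:**
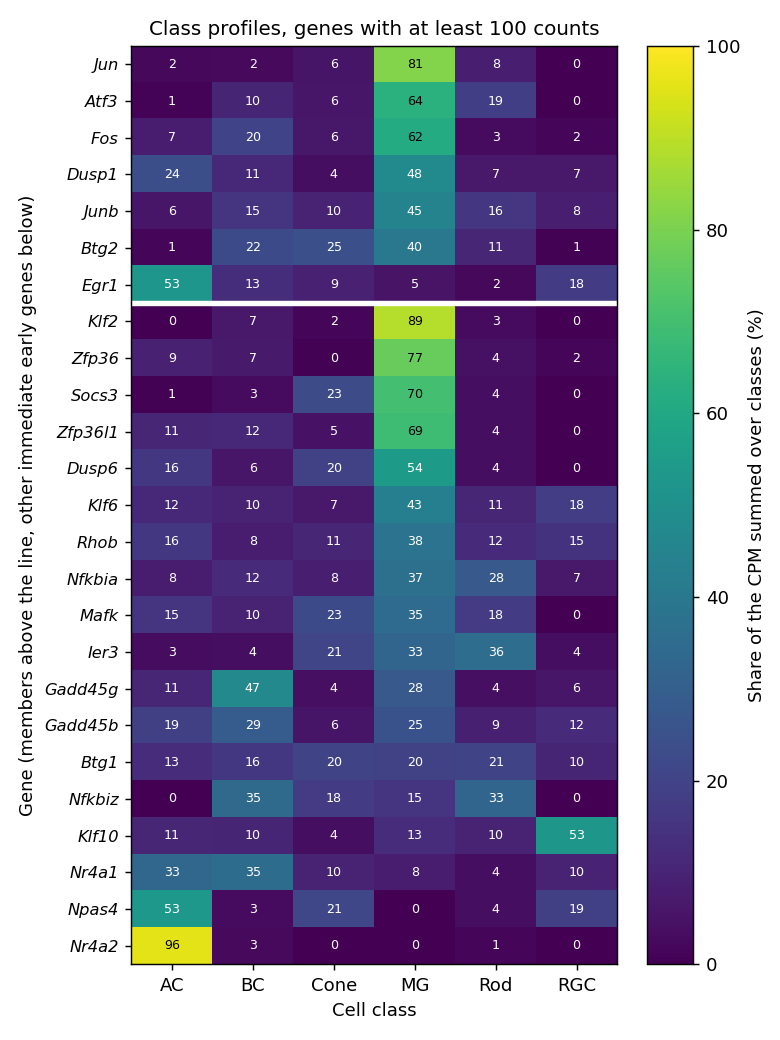
Share of each gene's CPM summed over the 6 classes, in percent, for the 7 listed genes (above the line) and 18 other immediate early genes (below) with at least 100 counts. Müller glia hold the largest share in 6 of the 7 and in 9 of the 18, and amacrine cells in Egr1, Npas4 and Nr4a2.

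A wider list of 34 immediate early genes was read beside them, of which 26 were in the table and 18 had at least 100 counts. Müller glia were highest for 9 of the 18, bipolar cells for 4, amacrine cells and rods for 2 each and ganglion cells for 1. Over all genes the shares were 17.0% for Müller glia, 13.9% for bipolar cells, 19.7% for amacrine cells, 26.1% for rods, 15.0% for ganglion cells and 8.29% for cones. A 2-fold lead was found in 10 of the 18, against 29.9% of all genes. In 7 of the 18 it was a lead of Müller glia, against 8.28% of all genes. The median lead was 2.37, against 1.46 over all genes. Ier3, a survival factor, was highest in rods (675 CPM) with Müller glia close (612 CPM), and Gadd45g, a growth arrest gene, in bipolar cells (607 CPM) with 361 CPM in Müller glia. For Nr4a2, an orphan nuclear receptor, 117 of 121 counts were amacrine (2.425 CPM) and 0 were from Müller glia, which allows up to 0.489 CPM. Npas4, a factor induced by calcium entry in neurons, had 116 of 139 counts from amacrine cells and 0 from Müller glia. As levels, it was at 2.40 CPM in amacrine cells, 0.958 CPM in cones and 0.855 CPM in ganglion cells. It was named for this pattern after its values were seen. The Fos relatives Fosl1 and Fosl2 had 14 and 15 counts, of which 14 and 13 were amacrine, too few for an order of classes. As a level, Fosl2 was at 0.326 CPM in Müller glia (2 counts) and 0.269 CPM in amacrine cells. Arc, also below 100 counts, went the other way, with 64 of 87 counts from Müller glia (10.4 CPM).

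The kinases and factors that act before immediate early genes did not share the Müller glia lead. Of 20 listed, 16 had at least 100 counts, of which 6 were highest in ganglion cells, 5 in rods, 2 each in amacrine and bipolar cells and 1 in Müller glia. Their median lead was 1.70. Map2k2 was at 163 CPM in rods and 126 CPM in Müller glia, and Map2k1, the other kinase of the ERK branch, at 177 CPM in ganglion cells and 36.4 CPM in Müller glia. Map2k7, a kinase of the branch that activates Jun, had its highest level in ganglion cells, at 18.2 CPM, where Jun itself had 1.14 CPM. The 12 heat shock genes with at least 100 counts, which dissociation can also induce, were highest in bipolar cells in 4, in amacrine cells and Müller glia in 3 each, and in rods and ganglion cells in 1 each, with a median lead of 1.47. Over all genes, Müller glia were highest for 17.0%. Hspa8 was at 3034 CPM in bipolar cells and 1650 CPM in Müller glia, Hspe1 at 1485 and 814 CPM in amacrine cells and Müller glia, and Dnaja1 at 240 CPM in bipolar cells and 96.0 CPM in Müller glia. Those highest in Müller glia were Hspb1 (388 CPM, 226 CPM in ganglion cells), Hspa1a (290 CPM, 177 CPM in rods) and Hsp90ab1 (169 CPM, 112.5 CPM in ganglion cells).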

How the data were processed

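The authors deposited whole-number counts per isoform for 6 cell classes, with no library named in the columns, and transcript models that name FLAIR as their source, per the file contents. The build is mm10, per the submitters' processing notes; 115691 of 122601 splice junctions (94.4%) matched GENCODE M21 on GRCm38. The counter, the collapse of molecular identifiers, cell typing, doublet treatment and filters are not given in the sources used here. Models exist for isoforms with a rod count; 7899 isoforms had none. No column was left unused (0).

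Counts were summed per gene, scaled to 1000000 per column and used without a test, since each class is 1 sample. Intervals are exact Poisson for levels and ratios and Clopper-Pearson for shares, at 95%, and cover counting error only. For a count of 0, the amount said to be allowed is 3 counts, which is tighter than these intervals. For Atf3 in ganglion cells it is 0.855 CPM, where the exact interval reaches 1.051 CPM. The members, lists and rules were chosen with earlier results of these data known; the motif TGACG was added after the promoters were seen. Named were all members, of each other list the 2 genes with the most counts and the one with the largest lead, and the 3 nearest genes to each member. Outside this rule, Npas4, Fosl1, Fosl2, Arc, Hspa1a, Hspb1 and Hsp90ab1 were also named. Of 13452 Ensembl genes, 13448 had a symbol; Cyr61 and Ctgf were also sought as Ccn1 and Ccn2. Alternatives were other scalings (trimmed mean of M-values and median of ratios), isoform filters and cut-offs. Rules were tested on simulated data. Python 3.11.15, numpy 2.4.6, pandas 2.3.3 and scipy 1.17.1 were used. One sequence is not reported here.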

Additional observations from a re-analysis of the deposited data

Results flagged for a closer look

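Beyond the isoforms under the gene identifiers, 6 single-exon loci named by position overlapped a listed gene on the same strand, and their counts enter none of the gene values. Each is listed because it had more counts in Müller glia than a count of 0 allows, so a count there is no finding in itself. At Jun, a locus at 95049041 to 95050246, which covers the distal part of the transcript that the main model lacks, had 31.1 CPM in Müller glia (26.9 to 35.9) and 3.55 CPM in bipolar cells. At Junb, a locus downstream of the coding sequence (84975738 to 84977032) had 18.9 CPM in Müller glia and 2.44 CPM in rods. At Fosb, a locus over the first exon and part of the first intron (19308949 to 19310208) had 50.7 CPM in Müller glia (45.2 to 56.7), 2.33 CPM in cones, 2.14 CPM in bipolar cells and 0.166 CPM in amacrine cells. Its 457 counts exceed the 34 counts of the Fosb gene. The other 2 Fosb loci had 5.22 CPM and 3.1 CPM in Müller glia, and the Ier2 locus 10.1 CPM. Müller glia were the highest class in all 6, several of which lie at the same gene, Fosb. Of the 2512 modelled loci named by position, 11.1% were highest in Müller glia. That share carries no requirement of Müller glia counts, so it is not a like comparison for the listed loci. A further locus inside Jund, without a model, had 6 of its 8 counts in bipolar cells and 1 in Müller glia. The last 30 bases of the largest Fosb locus held 19 adenines and no poly(A) signal; the share of models with at least as many was 7.40%. Whether these loci are transcripts of the genes or fragments was not tested.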

How the results depend on the processing

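The count of genes highest in Müller glia was 6 of 7 under both other scalings. It was also 6 of 7 with the most abundant isoform, with isoforms of at least 100 counts and without the ganglion cell column. Those settings could hardly change it and say little about stability. None of the 7 genes was highest in ganglion cells. Only Fos and Dusp1 had 2 isoforms, and their main isoforms held at least 91.2% of the counts in every class. The count was 7 of 8 with overlapping loci added. That last alternative was chosen after the data were seen, as was a subtraction of rod RNA, which at 5.84% of the rod level for Müller glia was too small to change the highest class of these genes and says nothing about stability. With Ensembl transcript identifiers only, Jun and Junb had no isoform left, and 4 of 5 genes were highest in Müller glia, 3 were led 2-fold and 0 were restricted to 1 class. A 4-fold lead left 1 gene, a share of 95% left 0 restricted and a share of 60% gave 3. With overlapping loci added, 2 genes were restricted, Fosb having passed 100 counts. With a minimum of 10 counts, 1 gene, Fosb, changed its main isoform, between amacrine cells and Müller glia. Of 54 ratios of a gene's highest class to its next, 11 moved by more than their counting error. All but that of Junb with overlapping loci added came from the other scalings. The trimmed mean of M-values moved Jun, Fos, Atf3 and Btg2, and median-of-ratios scaling moved every gene but Egr1. Jun, Junb, Egr1, Atf3 and Btg2 have 1 isoform, so isoform filters could not move them. Leaving out ganglion cells could move only Egr1. The total of 54 therefore says little about stability. The next class of Junb was bipolar cells under the trimmed mean of M-values. Median-of-ratios scaling changed the effective total of the amacrine column by 0.29 and of the Müller glia column by -0.31 on the log2 scale, so levels moved the opposite way, lower in amacrine cells and higher in Müller glia. The trimmed mean of M-values changed that of the ganglion cell column by 0.31, which lowered its levels. Dusp1, at 1.99, was just under a 2-fold lead and passed it under median-of-ratios scaling (1.59 on the log2 scale, 3.02-fold) and with its most abundant isoform (1.01 on the log2 scale). No paired analysis was possible because no column is tied to a library, and leaving out a library was not possible for the same reason.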
